A study of Mus musculus with 22 samples.

Results

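Cytochrome P450 enzymes of families 1 to 3 are the haem-containing oxygenases with which the liver oxidises drugs, dietary toxins, steroids and fatty acids. The genes described here are all those of both expression tables whose symbol opens with Cyp1, Cyp2 or Cyp3 followed by a letter and a number, which were 62 of 24063 genes in set 1 and the same 62 of 24019 genes in set 2. Where set 1 lists several transcripts of a gene, the one with the highest mean was used. The choice of genes used the symbol only.

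RNA was sequenced from 22 untreated mouse liver tumours of C57BL/6 animals, grown after hydrodynamic tail-vein injection, which forces plasmids into hepatocytes. All 22 carried MYC. In set 1 the groups were MYC with β-catenin (written bcat) and lucOS (2 tumours), MYC with β-catenin and luc (4), MYC with p53 and lucOS (3) and MYC with p53 and luc (3). In set 2 they were MYC with β-catenin (written CTNNB1) and lucOS (3), the same with luc (3), and MYC with sgp53 and lucOS (4). The name sgp53 stands for a guide RNA against the p53 tumour suppressor gene, luc is luciferase, and lucOS is luciferase joined to model antigen peptides. No group without MYC and no normal liver entered these comparisons. The labels give no age, and do not say whether the tumours came from separate animals, so p-values measure the spread between these tumours. Fewer cells of a type and less RNA per cell cannot be told apart in bulk tumour RNA. Reads per tumour, as recovered from the deposited values and summed over 1 row per gene, ran from 33706072 to 54872646 in set 1. In set 2 they ran from 33550553 to 50116323.

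In normal liver the P450 enzymes sit in the endoplasmic reticulum and take electrons from P450 reductase. Most are made in hepatocytes around the central vein, where Wnt signals keep β-catenin active, and fewer are made around the portal vein. The aryl hydrocarbon receptor induces the Cyp1 genes, the constitutive androstane receptor (Nr1i3) the Cyp2b genes and the pregnane X receptor (Nr1i2) the Cyp3a genes. Growth hormone and sex steroids set the sex-biased members in the mouse.

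The labelled tissue was checked on 9 hepatocyte markers, of which none was at 0 in any group. Their summed value ranged over 1270510 to 1358920 (lucOS β-catenin), 1308940 to 1595020 (luc β-catenin), 722381 to 1034460 (lucOS p53) and 676404 to 964586 (luc p53) in set 1, and over 472119 to 1345870 (lucOS β-catenin), 398982 to 1290150 (luc β-catenin) and 405396 to 734114 (lucOS p53) in set 2. Of these 9 markers 1, albumin, was called higher with β-catenin in luc tumours of set 1, and 0 were called in either lucOS comparison. All names of set 1 tumours begin with AL, while in set 2 the 6 β-catenin tumours and p53 tumour 4 have names that begin with JAX and the other 3 p53 tumours have AL names, so name and driver nearly coincide there.

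β-catenin tumours held a larger pool of xenobiotic P450 transcripts than p53 tumours. Reads were summed over the 1 row used per gene. In set 1 the 62 genes took 0.740% and 0.801% of these reads in the lucOS β-catenin tumours and 0.0973% to 0.190% in the lucOS p53 tumours. They took 0.609% to 1.198% in the luc β-catenin tumours and 0.0621% to 0.125% in the luc p53 tumours. In set 2 the shares were 0.271% to 0.890% in lucOS β-catenin tumours, 0.308% to 0.461% in their luc counterparts, and 0.0634% to 0.140% with p53 and lucOS. No β-catenin tumour fell within the range of the p53 tumours of its set. These shares, a description with no test, are the base of the plot of pool size and make-up.

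**Figure D1:**
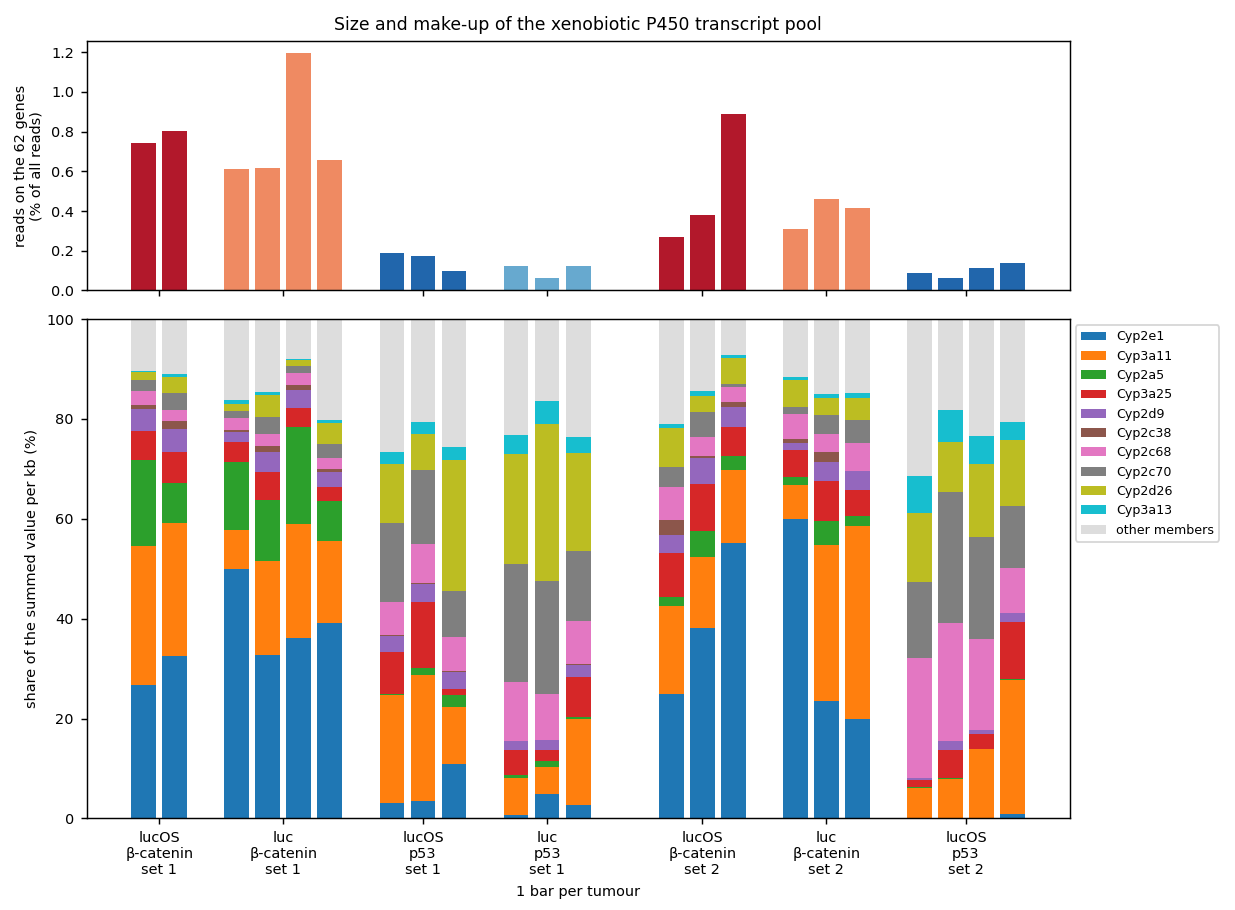
Top, reads on the 62 genes as a percentage of all reads on the rows used (1 per gene), with 1 bar per tumour. Bottom, the share of each gene in the summed value per kilobase of transcript. The β-catenin bars run from 0.271% to 1.198% of reads and are led by Cyp2e1 and Cyp3a11, while the p53 bars run from 0.0621% to 0.190% and have larger shares of Cyp2c70, Cyp2d26 and Cyp2c68.

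Per kilobase of transcript, a scale on which genes can be compared, Cyp2e1 had the largest share of the pool in 9 of 12 β-catenin tumours and in 0 of 10 p53 tumours. Cyp3a11, a main oxidase of drugs and steroids, led in the other 3 β-catenin tumours, with 27.8% in lucOS tumour 1 of set 1 and 31.3% and 38.6% in luc tumours 2 and 3 of set 2. It also led in 3 p53 tumours, with 21.6% and 25.2% in lucOS tumours 1 and 2 of set 1 and 26.7% in lucOS tumour 4 of set 2. In the other p53 tumours Cyp2d26 led in 3, Cyp2c70 in 3 and Cyp2c68 in 1. Cyp2e1 led in all 4 luc β-catenin tumours of set 1, with 32.8% to 50.03% of the summed value. In the luc p53 tumours of set 1 Cyp2e1 had 0.669% to 4.81%, and Cyp2d26, which led in 2 of the 3, had 19.7% to 31.4%. Cyp2e1, which oxidises ethanol and paracetamol, also led in all 3 lucOS β-catenin tumours of set 2, with 24.9% to 55.2%, against 0.0528% to 0.954% in the lucOS p53 tumours of that set. Cyp2c70, which makes the muricholic bile acids of mice, had 0.626% to 5.11% of the pool in the lucOS β-catenin tumours and 12.5% to 26.3% in the lucOS p53 tumours of set 2. Its value per kilobase averaged 2291 in those β-catenin tumours and 3322 in those p53 tumours.

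Of the 62 members 51 passed the filter on low values in set 1, which asked for 10 or more in 2 or more tumours. In set 2, where 3 or more tumours had to reach 10, 52 passed. At 0 in every tumour were Cyp2c53-ps, Cyp2c66 and Cyp2j12 in set 1 and Cyp2j11 in set 2. Another 3 members in set 1 and 8 in set 2 had at most 20 reads over all tumours. A member was called when its adjusted p was under 0.05 in limma's moderated test, fitted on log2 of the value plus 1 over all genes, with Benjamini-Hochberg adjustment. Log2 differences are given with their standard error (SE).

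**Figure D2:**
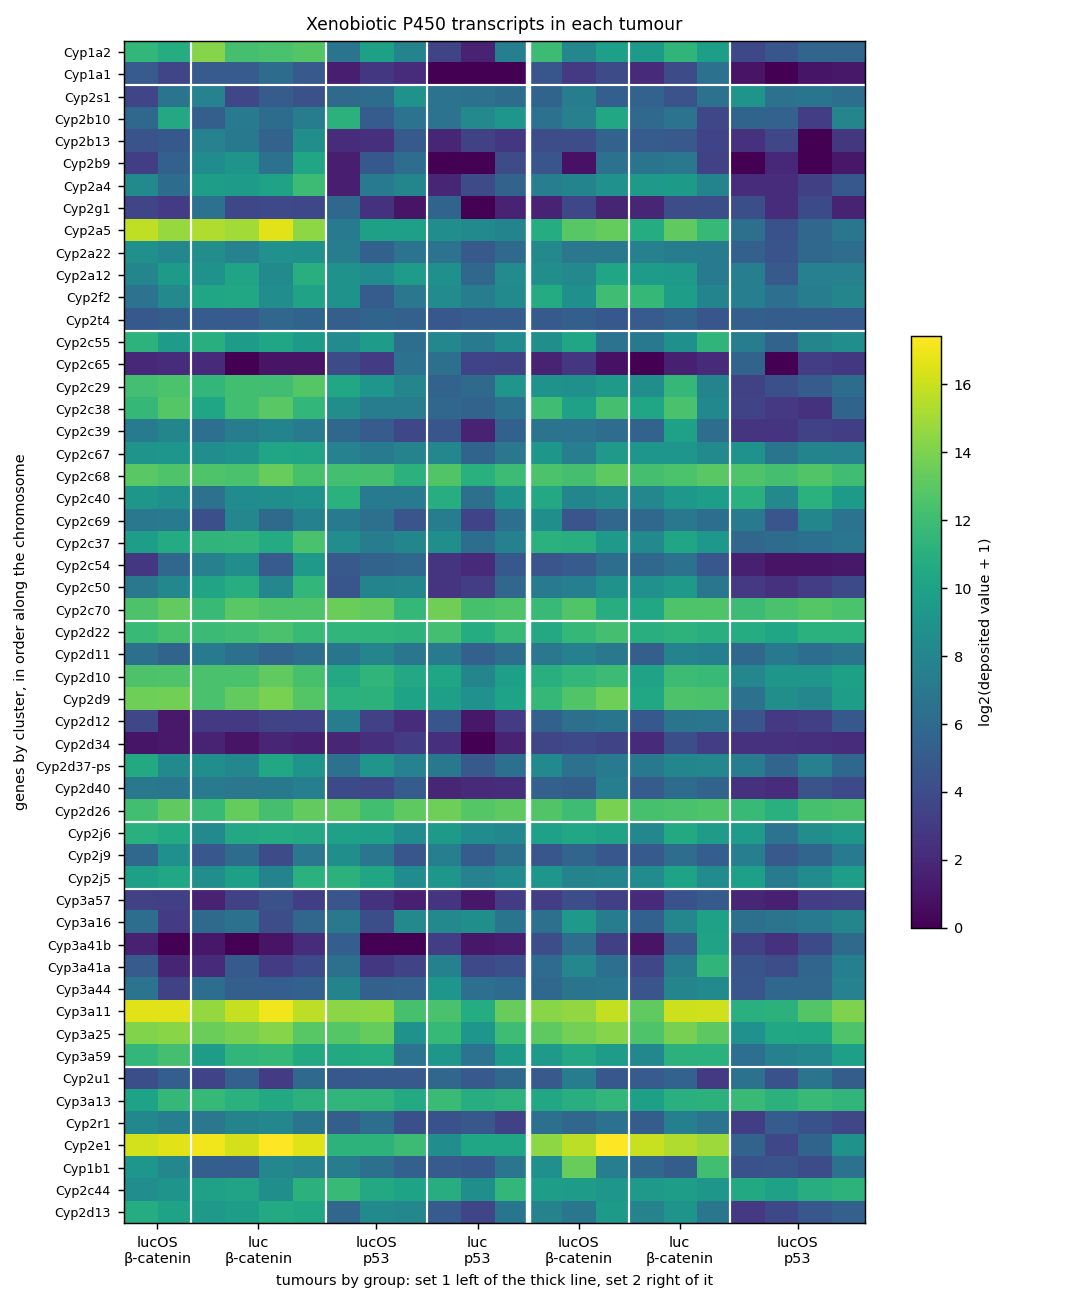
Log2 of the deposited value plus 1 for every member tested in at least 1 set. Rows follow the gene clusters and columns are single tumours by group, set 1 left and set 2 right of the thick line. Cyp2e1, Cyp2a5 and Cyp3a11 are brightest in β-catenin columns, while Cyp2c70, Cyp2c68 and Cyp2d26 have similar colours in all columns.

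With luc in set 1, 22 of the 51 tested members rose in β-catenin tumours relative to p53 tumours, where 5.93% of all 16108 tested genes did, and 1 fell, where 9.16% of all genes did. The median log2 difference of the members was 2.06, against -0.20 for all genes, and 38 of the 51 were positive. With lucOS in set 1, on 2 against 3 tumours, 5 members rose (background 1.62%) and 0 fell (2.59%), at a median of 0.89 against -0.15 for all genes. With lucOS in set 2, 20 of 52 members rose (background 6.08%) and 1 fell (10.9%), at a median of 1.87 against -0.16 for all genes. Without regard to direction the background was 15.1%, 4.21% and 17.0% of all genes in these 3 comparisons. The luc comparison of set 1 and the lucOS comparison of set 2 share no tumour. Risen in both were 17 members, 77.3% of the members that rose in the first and 85.0% of those that rose in the second. The matching overlap among all genes is not given, so these shares are not shown to be particular to P450 genes. All 5 members that rose with lucOS in set 1 are among these 17, namely Cyp2a5, Cyp2c38, Cyp2d9, Cyp2d40 and Cyp2e1. In 35 members there was no call in any driver comparison. This count includes members that passed the filter on low values in neither set and so were not tested. The matching count among all genes is not given, and a missing call is not shown to be a lack of change.

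With each tumour left out in turn, 17 of the 23 calls held in every fit in the luc comparison of set 1, 2 of 5 (Cyp2a5 and Cyp2e1) in the lucOS comparison of set 1, and 11 of 21 in the lucOS comparison of set 2. The JAX tumours of set 2 alone leave 1 p53 tumour, whose spread is taken from the other groups. Only effect sizes are therefore read from that fit.

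Cyp2e1 had the largest difference among the members in set 2. Its deposited values in set 1 were 77850 and 99245 in the lucOS β-catenin tumours, 134707, 80758, 169915 and 98700 in the luc β-catenin tumours, 2429, 2468 and 3896 in the lucOS p53 tumours, and 391, 1178 and 1292 in the luc p53 tumours. In set 2 they were 22692, 52507 and 174471 in lucOS β-catenin, 63426, 40476 and 29818 in luc β-catenin, and 45.6, 11.96, 47.8 and 479 in lucOS p53 tumours. The 2 drivers did not overlap in either set, and the highest p53 value of set 2 was that of tumour 4, the JAX one. The log2 difference was 7.11 ± 0.40 with luc in set 1 (adjusted p = 1.1e-05), 4.94 ± 0.48 with lucOS in set 1 (0.0011) and 9.92 ± 1.07 with lucOS in set 2 (0.0012). Within the JAX tumours of set 2, with 1 p53 tumour, it was 6.95, and 5.47, 4.25, 5.81 and 0.86 for Cyp2a5, Cyp1a2, Cyp2c38 and Cyp3a11.

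Cyp2a5, which oxidises coumarin and nicotine, had 55595 and 26904 in lucOS β-catenin and 40644, 32915, 99762 and 22271 in luc β-catenin tumours of set 1. In the p53 tumours of set 1 it had 143, 950 and 927 with lucOS and 379, 300 and 228 with luc. In set 2 the values were 1765, 7632 and 9842 in lucOS β-catenin, 1782, 9158 and 3220 in luc β-catenin, and 86.7, 20.2, 51.7 and 114 in lucOS p53 tumours. The groups did not overlap in any of the 3 driver comparisons. Cyp2a5 rose by a log2 difference of 7.13 ± 0.66 (adjusted p = 0.00018), 6.27 ± 0.79 (0.0048) and 6.46 ± 0.78 (0.0021) in the luc set 1, lucOS set 1 and lucOS set 2 comparisons. Its neighbour Cyp2a4, a female-predominant testosterone 15α-hydroxylase, rose in the luc comparison of set 1 (6.53 ± 1.42, adjusted p = 0.014) and the lucOS comparison of set 2 (4.90 ± 0.68, 0.0039). Without luc p53 tumour 1 the set 1 call was lost at an adjusted p of 0.066. With lucOS in set 1 Cyp2a4 had 321 and 69.8 in the β-catenin tumours, which overlap 1.79, 136 and 254 in the p53 tumours.

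The promoters of this pair are printed with that of Cyp2e1 because the 2 genes have nearly the same sequence, while Cyp2a5 was called in all 3 driver comparisons and Cyp2a4 in 2. Each stretch holds 250 bases before and 50 after the RefSeq start on GRCm38.p6, read 5′ to 3′ on the strand of the gene. They lie at chr7:140763569-140763868, plus strand (Cyp2e1), chr7:26835089-26835388, plus strand (Cyp2a5) and chr7:26306942-26307241, plus strand (Cyp2a4). Capitals mark the TATA box letters TATAAA in all 3.
Cyp2e1: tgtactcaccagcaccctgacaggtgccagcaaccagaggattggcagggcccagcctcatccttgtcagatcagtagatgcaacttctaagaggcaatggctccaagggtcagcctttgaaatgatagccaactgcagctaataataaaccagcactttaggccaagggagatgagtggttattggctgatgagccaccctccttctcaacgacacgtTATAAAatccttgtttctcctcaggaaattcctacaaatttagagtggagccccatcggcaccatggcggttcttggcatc
Cyp2a5: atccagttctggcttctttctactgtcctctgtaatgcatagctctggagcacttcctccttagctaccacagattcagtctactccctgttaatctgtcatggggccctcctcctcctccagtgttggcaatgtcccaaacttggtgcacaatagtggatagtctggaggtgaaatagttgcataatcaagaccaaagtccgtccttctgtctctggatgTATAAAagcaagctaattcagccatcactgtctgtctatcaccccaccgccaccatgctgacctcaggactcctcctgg
Cyp2a4: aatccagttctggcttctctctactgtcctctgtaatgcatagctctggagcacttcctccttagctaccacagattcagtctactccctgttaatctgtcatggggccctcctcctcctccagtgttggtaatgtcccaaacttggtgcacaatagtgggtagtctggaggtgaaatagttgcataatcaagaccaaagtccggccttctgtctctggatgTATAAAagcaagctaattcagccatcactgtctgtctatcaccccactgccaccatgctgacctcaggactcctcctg
The Cyp2a5 and Cyp2a4 stretches were identical at 294 of 299 aligned bases, or 98.3%. In the luc β-catenin tumours of set 1, Cyp2a5 averaged 24291 per kilobase of transcript and Cyp2a4 averaged 955. In the luc p53 tumours Cyp2a5 averaged 150 per kilobase and Cyp2a4 averaged 12.05. The transcripts also share sequence, since 31.0% of the 50-base windows of Cyp2a5 and 36.1% of those of Cyp2a4 occur in another member, so that reads can be split between them and the separate values are uncertain.

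Cyp1a2, the caffeine-oxidising enzyme of the aryl hydrocarbon receptor battery, had 2982 and 1727 in lucOS β-catenin, 19943, 5034, 5471 and 6755 in luc β-catenin, 101, 934 and 218 in lucOS p53, and 10.9, 2.27 and 182 in luc p53 tumours of set 1. The set 2 values were 3926, 260 and 889 in lucOS β-catenin, 731, 2705 and 880 in luc β-catenin, and 12.8, 23.9, 49.7 and 49.9 in lucOS p53 tumours. The β-catenin values lay above the p53 values in each comparison. It rose in luc tumours of set 1 (8.67 ± 1.16, adjusted p = 0.0016) and in lucOS tumours of set 2 (4.98 ± 0.87, 0.0082), while with lucOS in set 1 the difference was 3.04 ± 1.39 (0.21).

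Cyp1a1, its inducible neighbour, stayed at low values throughout. It was at 0 in the 3 luc p53 tumours and had 30.6, 30.7, 70.7 and 27.7 in the luc β-catenin tumours, which is at least 12.2-fold higher on average against a floor of 3 reads per library. It was called higher in set 2 as well (3.11 ± 0.91, adjusted p = 0.043), a call that held in 1 of 7 leave-outs. It was lost without p53 tumour 1, 2, 3 or 4 or without lucOS β-catenin tumour 1 or 3, at an adjusted p of up to 0.11. Cyp1b1, which oxidises oestrogens and is mostly made outside hepatocytes, was not called in any comparison. In set 2 it had 425, 10422 and 173 in lucOS β-catenin and 57.1, 33.9 and 4430 in luc β-catenin tumours, against 20.1, 22.1, 15.9 and 95.1 in lucOS p53 tumours. The values 10422 and 4430 stand alone within their groups (4.94 ± 1.78 for lucOS β-catenin minus lucOS p53, adjusted p = 0.080).

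**Figure D3:**
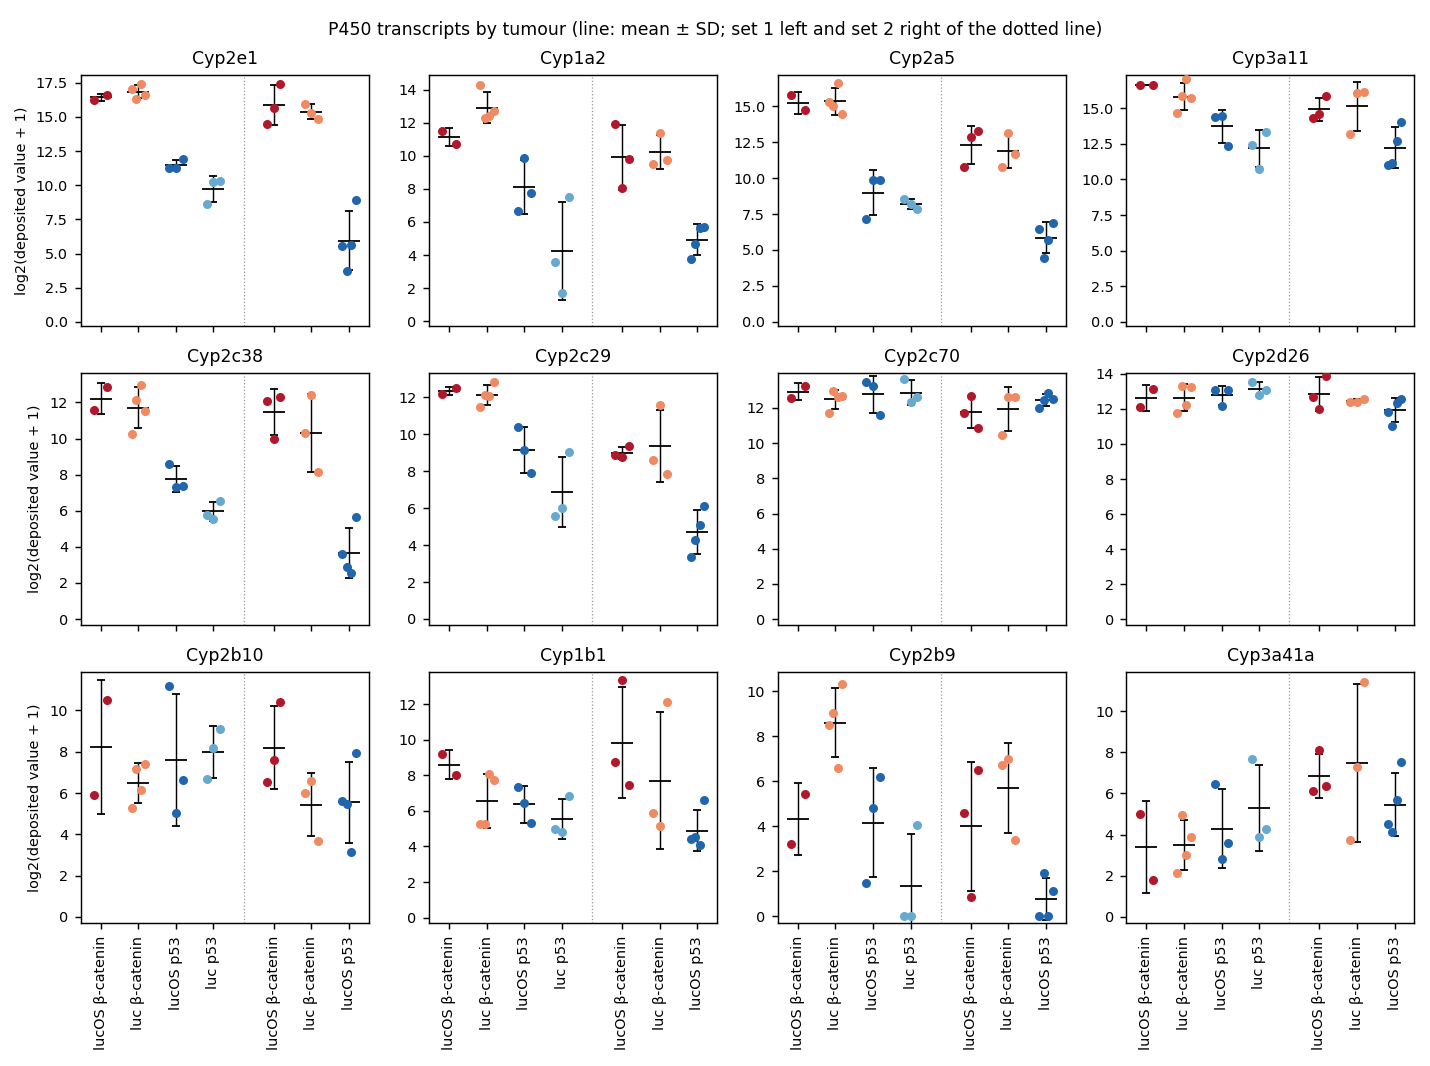
Log2 of the deposited value plus 1 for 12 members, 1 point per tumour, with the mean and SD of each group as a line and bars. Cyp2e1, Cyp2a5, Cyp1a2 and Cyp2c38 separate β-catenin from p53 tumours in both sets, Cyp2c70 and Cyp2d26 overlap, and Cyp2b10, Cyp1b1 and Cyp3a41a have single high tumours.

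The Cyp2c cluster on chromosome 19 spans 39007019 to 40187333 (GRCm38) and holds 15 members, which oxidise drugs, arachidonic acid and steroids. In the luc comparison of set 1, 7 of its 13 tested members rose and 1 fell. In the lucOS comparison of set 2, 6 of 12 rose and 0 fell, and with lucOS in set 1 1 of 13 rose, Cyp2c38. The shares of all genes that rose were 5.93%, 6.08% and 1.62% in the same order, and those that fell were 9.16%, 10.9% and 2.59%. Cyp2c38 had 1214, 4419, 7848 and 2939 in luc β-catenin tumours and 52.96, 46.5 and 93.8 in luc p53 tumours of set 1 (5.74 ± 0.59, adjusted p = 0.00035). In lucOS tumours of set 1 it had 3087 and 7280 with β-catenin, against 387, 161 and 167 with p53 (4.43 ± 0.70, 0.014). In those of set 2 it had 4282, 1008 and 5018 with β-catenin, against 10.95, 6.44, 4.97 and 48.7 with p53 (7.77 ± 1.05, 0.0036). The set 1 lucOS call was lost without lucOS β-catenin tumour 2, at an adjusted p of 0.091.

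Cyp2c29, an abundant liver Cyp2c of the mouse, had 2900, 4423, 4247 and 7325 in luc β-catenin and 46.2, 62.4 and 530 in luc p53 tumours of set 1 (5.26 ± 0.78, adjusted p = 0.0027). For set 2 the values were 461, 433 and 654 in lucOS β-catenin and 9.13, 18.4, 32.8 and 68.9 in lucOS p53 tumours (4.28 ± 0.87, 0.014). Cyp2c37, Cyp2c50 and Cyp2c54, which lie next to each other at the far end of the cluster, rose by 3.96 ± 0.55, 6.28 ± 1.04 and 4.45 ± 1.05 with luc in set 1 (adjusted p = 0.0020, 0.0047 and 0.020). They rose by 4.22 ± 0.54, 4.77 ± 0.66 and 4.15 ± 0.56 in set 2 (0.0028, 0.0038 and 0.0034). Of their 50-base windows 30.1%, 30.7% and 25.7% occur in another member, so their separate values are uncertain. The Cyp2c54 call of set 1 was lost without luc p53 tumour 1 or 2, at an adjusted p of 0.075 or 0.076.

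Cyp2c70 lies beyond Cyp2c50 at the same end of the cluster. It had 3364, 7825, 6289 and 6419 in luc β-catenin and 12875, 5202 and 6186 in luc p53 tumours of set 1. Those of set 2 were 3365, 6585 and 1853 in lucOS β-catenin and 3999, 5576, 7388 and 5852 in lucOS p53 tumours. The groups overlapped in both. Its log2 difference was -0.38 with luc in set 1 (95% interval -1.43 to 0.66), 0.15 with lucOS in set 1 (-1.10 to 1.41) and -0.69 in set 2 (-1.95 to 0.56). Cyp2c68, in the middle of the cluster, had differences of 0.82, 0.89 and 0.20 in the same order, with intervals of -0.05 to 1.70, -0.16 to 1.93 and -0.35 to 0.74. Cyp2c68, Cyp2c40, Cyp2c67 and Cyp2c69 are near copies, with 43.3% to 72.1% of their 50-base windows found in another member, so their separate values are uncertain.

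The promoters of Cyp2c29, Cyp2c38 and Cyp2c70 are printed because the first 2 genes rose and the last was not called within 1 cluster. They lie at chr19:39286835-39287134, plus strand (Cyp2c29), chr19:39463026-39463325, minus strand (Cyp2c38) and chr19:40187237-40187536, minus strand (Cyp2c70). Capitals mark the TCF/LEF letters CTTTGAT on the opposite strand in Cyp2c29, the HNF4 letters CAAAGTCCA in Cyp2c70 and TATAAA on either strand in all 3.
Cyp2c29: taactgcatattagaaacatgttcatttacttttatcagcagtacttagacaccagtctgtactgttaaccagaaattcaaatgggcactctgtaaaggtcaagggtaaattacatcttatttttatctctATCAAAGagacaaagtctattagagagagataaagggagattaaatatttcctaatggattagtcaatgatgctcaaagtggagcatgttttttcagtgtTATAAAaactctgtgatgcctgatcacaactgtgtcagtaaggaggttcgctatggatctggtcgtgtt
Cyp2c38: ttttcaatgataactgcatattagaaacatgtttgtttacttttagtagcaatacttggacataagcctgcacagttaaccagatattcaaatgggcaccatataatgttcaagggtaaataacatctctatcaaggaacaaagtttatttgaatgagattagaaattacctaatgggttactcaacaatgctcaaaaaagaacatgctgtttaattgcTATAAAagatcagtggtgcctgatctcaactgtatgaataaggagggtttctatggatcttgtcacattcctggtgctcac
Cyp2c70: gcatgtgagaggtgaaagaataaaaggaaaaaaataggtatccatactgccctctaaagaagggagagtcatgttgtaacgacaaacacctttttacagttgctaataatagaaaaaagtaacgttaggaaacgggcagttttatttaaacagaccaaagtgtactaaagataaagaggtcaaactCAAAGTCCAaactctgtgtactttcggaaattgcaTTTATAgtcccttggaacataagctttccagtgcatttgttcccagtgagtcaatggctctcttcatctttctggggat
A RefSeq promoter was found for 52 members, and motifs were looked for on both strands. CAAAGTCCA occurred in 10 of them (19.2%) and in 0.48% of all 27025 promoters. It occurred in 0 of the 15 promoters of members that rose in both the luc comparison of set 1 and the lucOS comparison of set 2, and in 10 of the other 37. Those 10 are Cyp2c40, Cyp2c65, Cyp2c67, Cyp2c68, Cyp2c69, Cyp2c70, Cyp3a11, Cyp3a16, Cyp3a41a and Cyp3a41b. Several are near copies of each other and not independent. Cyp2c67 and Cyp3a11 did rise with luc in set 1, and Cyp2c65 and Cyp3a41b were each tested in 1 set only. CTTTGAT occurred in 2 members (3.8%), Cyp2c29 and Cyp2c39, both among the 15, and in 3.72% of all promoters. TATAAA occurred in 27 members (51.9%), 11 of the 15 and 16 of the other 37, and in 14.16% of all promoters. The aryl hydrocarbon receptor core GCGTG occurred in 9 members (17.3%), Cyp1a1 and Cyp1b1 among them, and in 32.46% of all promoters. These counts describe letters in windows of 300 bases, with no test.

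At the other end of the Cyp2c cluster lie Cyp2c55 and Cyp2c65. Cyp2c65, a Cyp2c of the mouse gut, was the only member called lower with luc in set 1 (-3.42 ± 0.97, adjusted p = 0.038). It had 3.40, 0, 0.895 and 0.924 in β-catenin tumours and 85.5, 10.2 and 9.22 in p53 tumours, so that the groups did not overlap but the values were low. The call was lost without luc p53 tumour 1 or 2 or luc β-catenin tumour 2, 3 or 4, at an adjusted p of up to 0.14. In set 2 Cyp2c65 did not pass the filter. Cyp2c44, a Cyp2c outside the cluster at chr19:44005022-44029208, was the only member called lower in set 2. It had 859, 789 and 556 in lucOS β-catenin tumours and 1506, 1006, 1884 and 2461 in lucOS p53 tumours (-1.17 ± 0.30, adjusted p = 0.028). This call was lost without p53 tumour 1, 3 or 4 or lucOS β-catenin tumour 3, at an adjusted p of up to 0.092. With luc in set 1 the difference of Cyp2c44 was -0.33 ± 0.71 (0.78).

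**Figure D4:**
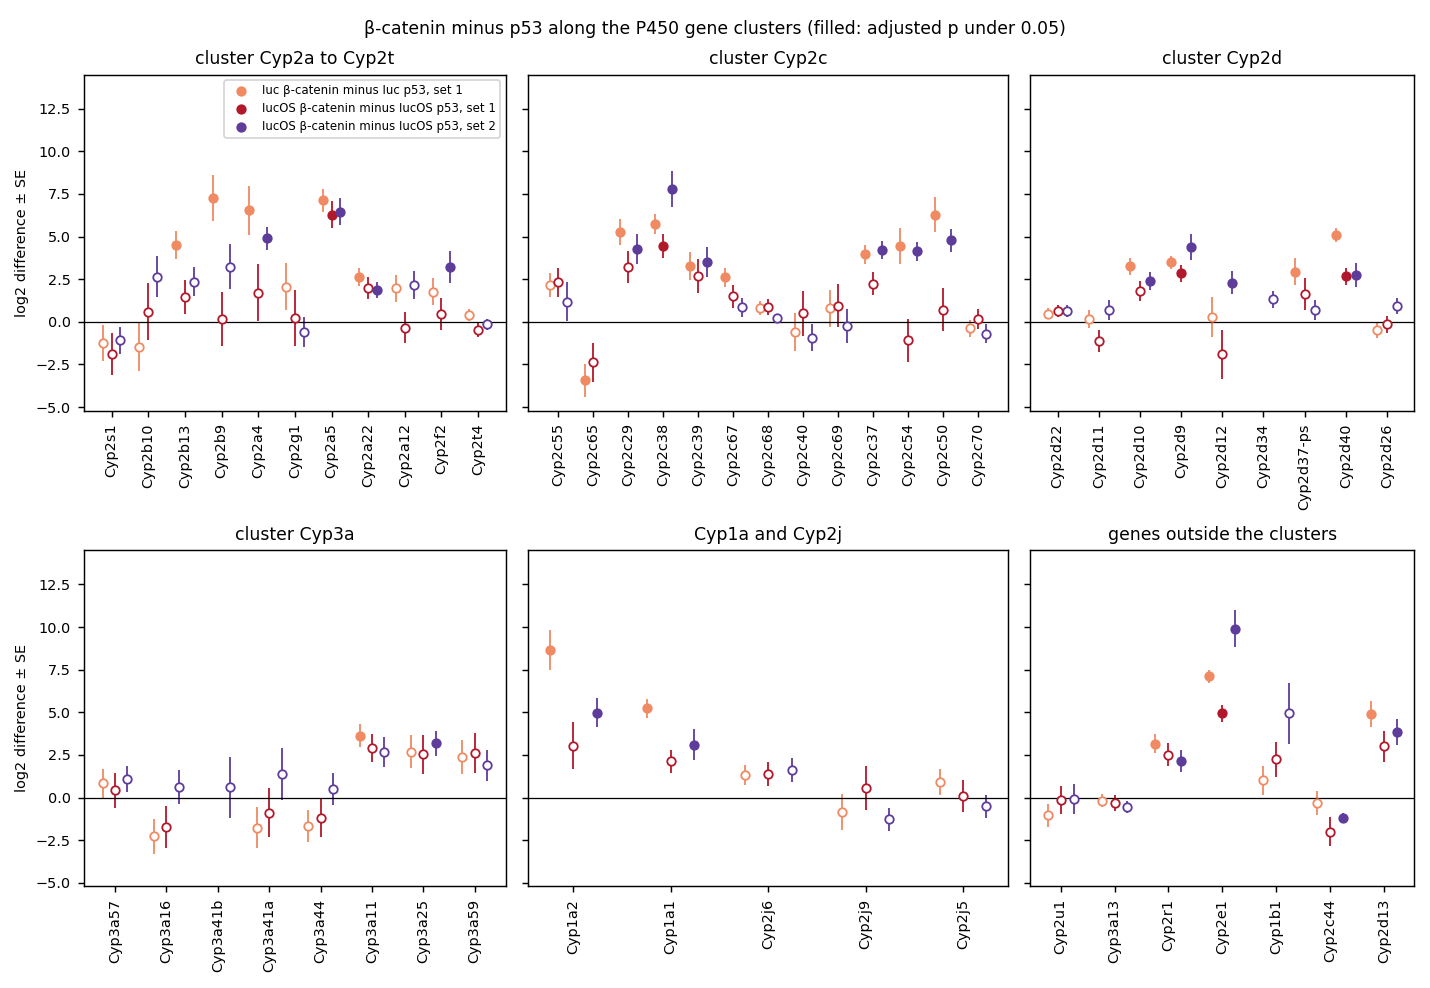
Log2 difference of β-catenin minus p53 tumours with its SE for each tested member, in order along the gene clusters, in the 3 driver comparisons. Filled points passed an adjusted p of 0.05. Within the Cyp2c panel Cyp2c29, Cyp2c38, Cyp2c37, Cyp2c54 and Cyp2c50 lie at 3.96 or above with luc in set 1, while Cyp2c70 beside them lies at -0.38.

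The Cyp2d cluster on chromosome 15 (82370527 to 82794294, GRCm38) holds 9 members, relatives of the human debrisoquine-oxidising CYP2D6. In the luc comparison of set 1, 4 of its 8 tested members rose, in the lucOS comparison of set 1 2 of 8, and in set 2 4 of 9. None fell. Over all genes 5.93%, 1.62% and 6.08% rose and 9.16%, 2.59% and 10.9% fell in these comparisons. Cyp2d9, a testosterone 16α-hydroxylase that is male-predominant in mouse liver, had 5353, 9550, 15448 and 6821 in luc β-catenin and 903, 457 and 1078 in luc p53 tumours (3.49 ± 0.40, adjusted p = 0.00070). It had 12254 and 13460 in lucOS β-catenin, against 2253, 2299 and 1109 in lucOS p53 tumours of set 1 (2.84 ± 0.48, 0.016). The lucOS groups of set 2 had 3046, 6633 and 12290 with β-catenin, against 94.0, 385, 261 and 814 with p53 (4.40 ± 0.78, 0.0086). The set 1 lucOS call was lost without lucOS β-catenin tumour 1 or 2, at an adjusted p of 0.061 or 0.091.

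Cyp2d40 rose by 5.09 ± 0.42 with luc in set 1 (adjusted p = 0.00012), 2.68 ± 0.50 with lucOS in set 1 (0.022) and 2.75 ± 0.72 in set 2 (0.031). Its calls with lucOS were lost without lucOS p53 tumour 1 or lucOS β-catenin tumour 1 or 2 in set 1, and without lucOS p53 tumour 1 or 2 or lucOS β-catenin tumour 3 in set 2, at an adjusted p of up to 0.099. Cyp2d10 rose by 3.25 ± 0.47 with luc in set 1 (0.0025) and by 2.40 ± 0.52 in set 2 (0.016), where the call was lost without lucOS β-catenin tumour 3 (0.058). Cyp2d11, beside it and with 36.0% of its windows shared, had differences of 0.15 ± 0.54 with luc in set 1 and 0.70 ± 0.59 in set 2. Another member shares 37.1% of the windows of Cyp2d10 and 27.9% of those of Cyp2d9, so the separate values of all of these genes are uncertain. Cyp2d26 at the end of the cluster had 3434, 9964, 4851 and 9816 in luc β-catenin and 11937, 7135 and 8641 in luc p53 tumours. Its log2 differences were -0.51, -0.15 and 0.92 in the luc set 1, lucOS set 1 and lucOS set 2 comparisons, with 95% intervals of -1.42 to 0.41, -1.24 to 0.95 and -0.08 to 1.93. Scaled by TMM the lucOS difference of set 1 changed sign.

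The Cyp3a genes make the major steroid- and drug-oxidising enzymes, and their cluster on chromosome 5 (145345279 to 146113287, GRCm38) holds 8 members. In each of the luc comparison of set 1 and the lucOS comparison of set 2 1 member rose, of 7 and 8 tested, and with lucOS in set 1 0 of 7 rose. Over all genes 5.93%, 6.08% and 1.62% rose in the same order, so 1 call in so few genes is not shown to exceed that share. Cyp3a11, the main hepatic one, had 26285, 59415, 137004 and 53243 in luc β-catenin and 5559, 1744 and 10373 in luc p53 tumours (3.64 ± 0.69, adjusted p = 0.0085). In lucOS tumours of set 1 it had 103497 and 103701 with β-catenin, against 21457, 22250 and 5291 with p53 (2.93 ± 0.83, 0.068). Set 2 had 20532, 25119 and 58512 in lucOS β-catenin, 9264, 68958 and 73886 in luc β-catenin, and 2095, 2294, 6781 and 17146 in lucOS p53 tumours (2.68 ± 0.89 for the lucOS groups, 0.065). The lucOS groups did not overlap, though Cyp3a11 was not called, and DESeq2 called it in both lucOS comparisons (adjusted p = 0.0067 and 0.012).

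Cyp3a25 rose in set 2, with 8739, 14188 and 19774 in lucOS β-catenin and 439, 1401, 1286 and 6263 in lucOS p53 tumours (3.17 ± 0.73, adjusted p = 0.021). The call was lost without lucOS p53 tumour 3 (0.055) or lucOS β-catenin tumour 3 (0.070). Cyp3a13, which lies outside the cluster, differed by -0.18 ± 0.39, -0.31 ± 0.46 and -0.58 ± 0.35 in the luc set 1, lucOS set 1 and lucOS set 2 comparisons, with no call. Under TMM scaling the first of these turned positive. The female-predominant Cyp3a41a had its highest value, 2708, in luc β-catenin tumour 3 of set 2, against 12.1 and 155 in the other 2 tumours of that group. Cyp3a41b had 1063 in the same tumour and 0.865 and 31.0 in the other 2. These 2 genes share 98.6% and 93.5% of their windows, so their separate values are uncertain.

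The cluster on chromosome 7 (25802475 to 27158668, GRCm38) holds 13 members of the Cyp2a, Cyp2b, Cyp2f, Cyp2g, Cyp2s and Cyp2t subfamilies. Among 11 tested, 5 rose with luc in set 1, 1 with lucOS in set 1 and 4 in set 2, and none fell. The shares of all genes that rose were 5.93%, 1.62% and 6.08%, and those that fell were 9.16%, 2.59% and 10.9%. Cyp2b9, a female-predominant Cyp2b, had 360, 515, 95.8 and 1262 in luc β-catenin and 0, 0 and 15.4 in luc p53 tumours (7.26 ± 1.33, adjusted p = 0.0073). With lucOS it had 8.18 and 42.4 in β-catenin tumours of set 1, which overlap 1.79, 26.9 and 72.7 in p53 tumours (0.16 ± 1.59, 0.97). Cyp2b13, next to it, rose with luc in set 1 (4.53 ± 0.83, 0.0071). Cyp2b10, the classic phenobarbital-induced gene, was not called. It had 59.3 and 1463 in lucOS β-catenin and 2357, 31.9 and 96.6 in lucOS p53 tumours of set 1, where 1 tumour of each group is high. In lucOS tumours of set 2 it had 93.1, 192 and 1377 with β-catenin and 47.5, 43.2, 7.96 and 247 with p53 (2.65 ± 1.22, 0.15).

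Of 11 P450 genes listed as female-predominant in mouse liver, 4 of 10 tested rose with luc in set 1 (Cyp2a4, Cyp2b9, Cyp2b13 and Cyp2c39), 0 of 10 with lucOS in set 1 and 2 of 11 in set 2 (Cyp2a4 and Cyp2c39), and 0 fell. Of 4 listed as male-predominant, Cyp2d9 alone rose in each comparison, and Cyp2c44 fell in set 2. Over all genes 5.93%, 1.62% and 6.08% rose and 9.16%, 2.59% and 10.9% fell, and lists this short are not shown to exceed those shares. The Cyp2c39 calls were lost without luc p53 tumour 1 or 2 or luc β-catenin tumour 2, 3 or 4 in set 1, and without any 1 of the 7 tumours of the 2 groups except lucOS p53 tumour 4 in set 2, at an adjusted p of up to 0.067. Xist, the RNA of the inactive X chromosome, had values of 34294 to 78803 in set 1 and 33323 to 78910 in set 2. The Y-linked Ddx3y, Eif2s3y, Kdm5d and Uty were at 0 in all of set 1 and had at most 5 reads in a tumour of set 2.

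Cyp2f2, a periportal P450 of the liver that is also abundant in airway club cells, rose in set 2. It had 1662, 422 and 4254 in lucOS β-catenin, 3116, 814 and 233 in luc β-catenin, and 178, 81.9, 160 and 247 in lucOS p53 tumours (3.21 ± 0.92 for the lucOS groups, adjusted p = 0.040). The call was lost without any 1 of the 7 tumours except lucOS β-catenin tumour 2, at an adjusted p of up to 0.14. Of 6 club and airway cell markers 4 were tested in set 2, where 3 rose (6.08% of all genes did) and 1, Foxj1, fell (10.9%). Scgb1a1, the defining one, had 410, 472 and 448 in lucOS β-catenin, 836, 1079 and 453 in luc β-catenin, and 0, 0.920, 0.995 and 1.19 in lucOS p53 tumours of set 2, and at most 0.853 in set 1. The 6 markers summed to 497 to 568, 543 to 1269 and 43.96 to 624 in these 3 groups, and Scgb3a2 and Bpifa1 were at 0 in the p53 group. Scgb1a1 thus differed with the driver in set 2 as Cyp2f2 did, and the part of airway RNA in the Cyp2f2 difference was not tested. Cyp2r1, a vitamin D 25-hydroxylase, rose with luc in set 1 (3.16 ± 0.56, 0.0061) and in set 2 (2.15 ± 0.62, 0.042), where the call was lost in 6 of 7 leave-outs, those without any tumour but p53 tumour 2, at up to 0.12.

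The Cyp2j genes, which make epoxides of arachidonic acid, had 3 tested members of 7 (Cyp2j5, Cyp2j6 and Cyp2j9), and 0 were called in any comparison. Cyp2j6 had differences of 1.32 ± 0.60, 1.40 ± 0.72 and 1.61 ± 0.71 in the luc set 1, lucOS set 1 and lucOS set 2 comparisons, at adjusted p-values of 0.15, 0.27 and 0.14. Cyp2s1, Cyp2t4 and Cyp2u1, which are made in many tissues, were not called, and the set 2 differences of Cyp2t4 and Cyp2u1, -0.14 and -0.07, changed sign under TMM scaling.

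Of 8 P450 genes listed as pericentral in mouse liver, 8 rose with luc in set 1, 2 (Cyp2a5 and Cyp2e1) with lucOS in set 1 and 7 in set 2, Cyp3a11 being the one not called. Their median log2 differences were 5.77, 2.99 and 4.53, against -0.20, -0.15 and -0.16 for all genes. The shares of all genes that rose were 5.93%, 1.62% and 6.08%. Of 8 Wnt readouts, genes that β-catenin is known to raise, 8 of 8, 4 of 8 and 5 of 7 tested rose in the same comparisons, at medians of 5.68, 3.74 and 4.95. Axin2 rose in all 3, by 6.82 ± 0.55 (adjusted p = 0.00012), 4.04 ± 0.66 (0.015) and 6.28 ± 0.51 (0.00027). Glul, the pericentral glutamine synthetase, rose with luc in set 1 (3.79 ± 0.46, 0.00092) and differed by 1.14 ± 0.55 (0.24) and 0.61 ± 0.27 (0.13) in the lucOS comparisons.

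Some of the genes that feed the P450 enzymes with electrons and haem rose as well. Of 14 tested, 9 rose with luc in set 1, 3 with lucOS in set 1 and 8 in set 2, and 0 fell, at medians of 1.02, 0.99 and 0.80. Over all genes 5.93%, 1.62% and 6.08% rose and 9.16%, 2.59% and 10.9% fell, at medians of -0.20, -0.15 and -0.16. Por, the reductase that passes electrons to all of them, had 36972, 46292, 76002 and 29702 in luc β-catenin and 10065, 8902 and 13654 in luc p53 tumours (2.05 ± 0.39, adjusted p = 0.0082). Its set 2 values were 14872, 21031 and 33366 in lucOS β-catenin and 4839, 5055, 5122 and 9488 in lucOS p53 tumours (1.90 ± 0.33, 0.0086). Alas1, the rate-limiting enzyme of haem synthesis, had 27431, 16496, 20358 and 23311 in luc β-catenin and 2701, 3003 and 2995 in luc p53 tumours (2.89 ± 0.31, 0.00047). Set 2 values of Alas1 were 7629, 9880 and 26422 in lucOS β-catenin and 1834, 2428, 1889 and 4040 in lucOS p53 tumours (2.38 ± 0.48, 0.013). Neither gene overlapped between these groups. Fech, which puts the iron into haem, rose in all 3 comparisons, by 0.85 ± 0.21, 1.06 ± 0.26 and 1.32 ± 0.31 (0.026, 0.046 and 0.023). Cyb5b, a cytochrome b5, rose by 1.29 ± 0.31 with luc in set 1 (0.021) and 1.37 ± 0.27 in set 2 (0.012).

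**Figure D5:**
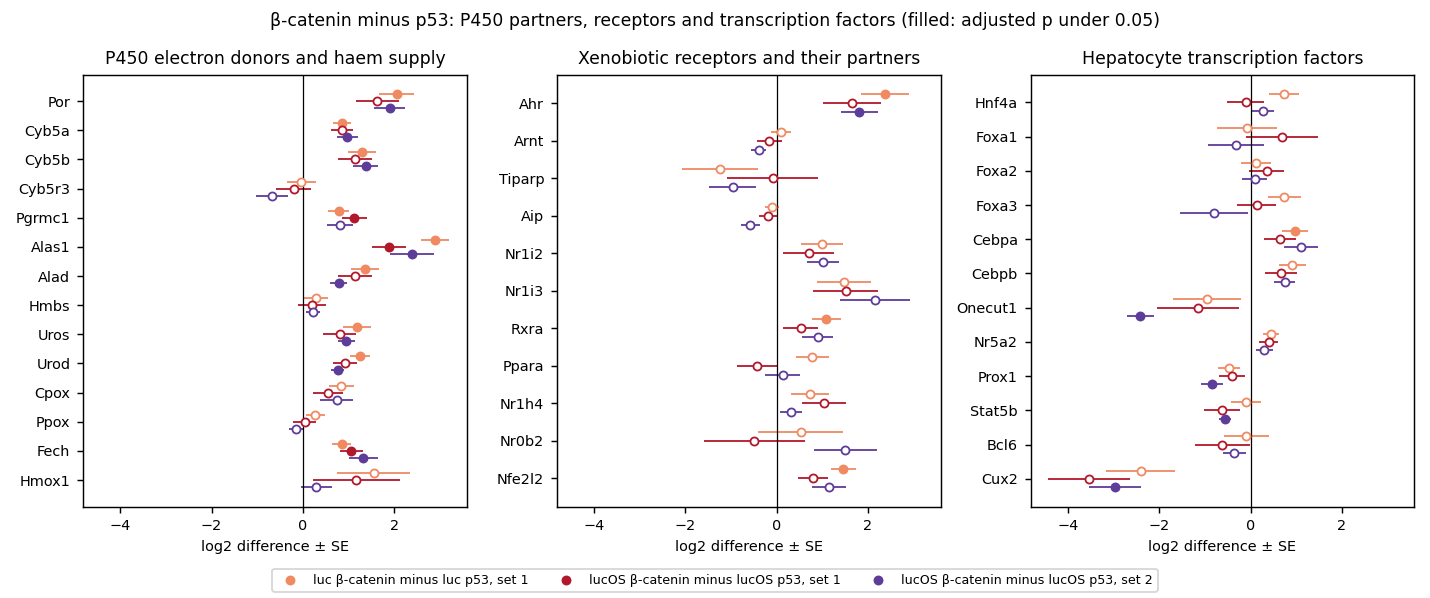
Log2 difference of β-catenin minus p53 tumours with its SE for genes of electron and haem supply, xenobiotic receptors and hepatocyte transcription factors. Filled points passed an adjusted p of 0.05. Alas1 and Fech are filled in all 3 comparisons, Ahr in 2, and Hnf4a in none.

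Of the xenobiotic receptors and their partners, 3 of 11 tested rose with luc in set 1 (Ahr, Nfe2l2 and Rxra), 0 with lucOS in set 1 and 1 (Ahr) in set 2. Over all genes 5.93%, 1.62% and 6.08% rose, so the set 2 count is not shown to exceed that share. Ahr, the receptor of the Cyp1 genes, had 2525, 2003, 9626 and 2719 in luc β-catenin and 443, 945 and 682 in luc p53 tumours (2.36 ± 0.52, adjusted p = 0.0155). Set 2 values of Ahr were 1282, 1703 and 2007 in lucOS β-catenin and 355, 280, 904 and 530 in lucOS p53 tumours (1.81 ± 0.41, 0.019). The pregnane X receptor Nr1i2 differed by 0.99 ± 0.46 with luc in set 1 and 1.01 ± 0.36 in set 2 (0.16 and 0.076), and the constitutive androstane receptor Nr1i3 by 1.47 ± 0.60 and 2.15 ± 0.76 (0.11 and 0.078). Of 12 hepatocyte transcription factors 1 rose (Cebpa) and 0 fell with luc in set 1, 0 were called with lucOS in set 1, and 4 fell in set 2 (Cux2, Onecut1, Prox1 and Stat5b). The share of all genes that fell in set 2 was 10.9%. With luc in set 1 5.93% of all genes rose, which the single Cebpa call is not shown to exceed. Hnf4a, a factor of many liver P450 promoters, differed by 0.73 ± 0.34, -0.11 ± 0.40 and 0.26 ± 0.24 and was not called.

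Some markers of other cell types moved with the driver too. For scale, 9.16%, 2.59% and 10.9% of all genes fell in the luc set 1, lucOS set 1 and lucOS set 2 comparisons. In the same order 5.93%, 1.62% and 6.08% rose. Of 7 kidney tubule markers, 5 were tested in set 1 and 4 in set 2. Among those tested, 3 (Cdh16, Lrp2 and Pax8) fell in β-catenin relative to p53 tumours with luc in set 1 and in set 2. With lucOS in set 1 Cdh16 alone fell. The 7 summed to 14.3 to 290 in luc β-catenin and 2585 to 6097 in luc p53 tumours of set 1, and to 11.6 to 1360 in lucOS β-catenin and 3137 to 8121 in lucOS p53 tumours of set 2. Kap was at 0 in each of these groups and Umod in the luc β-catenin group. Of 5 tested T cell markers 4 fell in set 2, where the summed values were 104 to 109 in lucOS β-catenin and 265 to 688 in lucOS p53 tumours. Bile duct markers summed to 831 to 4401 in luc β-catenin and 2951 to 16887 in luc p53 tumours of set 1, and to 227 to 2484 in lucOS β-catenin and 1763 to 15555 in lucOS p53 tumours of set 1, with Sox9 of the 6 called lower in both comparisons. The ranges of these sums overlapped in both comparisons of set 1. In set 2 the sums overlapped too, at 1561 to 4015 in lucOS β-catenin and 1568 to 7918 in lucOS p53 tumours. There 0 of the 6 were called, at a median log2 difference of 0.14. Enterocyte markers had Lct called lower with luc in set 1, and 0 of 4 and 0 of 3 were called in the lucOS comparisons of set 1 and set 2. In set 2 Dcn and Clec4f rose and Csf1r, Cdh5 and Pecam1 fell, among 7 stellate, 5 macrophage and 6 endothelial markers tested. Marco was the one such marker called with luc in set 1. The part of these cell types in the P450 differences was not tested.

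The antigen was compared within each driver, to see whether lucOS changed P450 levels. In p53 tumours of set 1 0 of 51 members were called for lucOS minus luc, where 0.0% of all 16108 genes were called. The median member difference was 0.74, against -0.00 for all genes, and 40 of 51 members were positive. At an unadjusted p under 0.05 there were 10 members, all positive, and edgeR and DESeq2 on recovered reads called 0 as well. The share of all genes under that unadjusted limit was not counted, so the 10 are not shown to exceed it. Cyp2e1 had 2429, 2468 and 3896 in lucOS p53 and 391, 1178 and 1292 in luc p53 tumours (1.76 ± 0.43, adjusted p = 0.95). Cyp2d40 had 14.3, 11.9 and 33.1 in lucOS p53 and 2.72, 3.40 and 3.84 in luc p53 tumours (2.14 ± 0.45, 0.95). For both the groups did not overlap.

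In β-catenin tumours lucOS minus luc gave 0 calls of 51 in set 1 and 0 of 52 in set 2 (background 0.0% in both), by limma, edgeR and DESeq2. Unadjusted p-values were under 0.05 in limma for 4 members of set 1 and 0 of set 2, with no count over all genes beside them. Those 4, Cyp2b9, Cyp2b13, Cyp2c54 and Cyp2f2, were all lower with lucOS by value, Cyp2b9 with 8.18 and 42.4 in lucOS and 360, 515, 95.8 and 1262 in luc tumours (-4.28 ± 1.51, adjusted p = 1.0). In set 2 the differences of the 5 main markers were wide, with 95% intervals of -2.07 to 3.03 for Cyp2e1, -2.38 to 1.76 for Cyp1a2, -1.40 to 2.29 for Cyp2a5, -2.34 to 1.91 for Cyp3a11 and -1.35 to 3.66 for Cyp2c38. Changes of several fold in either direction lie within these limits.

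Whether the driver difference depended on the antigen was tested in set 1 as an interaction, lucOS minus luc. By limma and by edgeR 0 members were called (background 0.0%), 8 had an unadjusted p under 0.05 in limma, and DESeq2 called 1 lower. All 8 interaction values were negative, that is, the fitted driver difference was smaller with lucOS. They belonged to Cyp1a1, Cyp1a2, Cyp2b9, Cyp2b13, Cyp2c50, Cyp2c54, Cyp2d40 and Cyp2e1. The share of all genes under that unadjusted limit was again not counted. Cyp2c50 had 122 and 285 in lucOS β-catenin and 24.1, 229 and 257 in lucOS p53 tumours, against 1147, 1808, 266 and 2889 in luc β-catenin and 5.43, 7.94 and 51.5 in luc p53 tumours (-5.57 ± 1.62, adjusted p = 1.0). With lucOS in set 2 the same gene had 154, 181 and 475 in β-catenin and 6.39, 4.6, 7.96 and 14.3 in p53 tumours, which did not overlap. By limma and edgeR no single member was thus shown to differ between the 5 calls with lucOS and the 23 with luc.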

How the data were processed

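The deposited values are gene-level signal from total RNA (TruSeq, strand not stated). Per the submitters' processing notes TopHat2, featureCounts, DESeq2 and mm10 were used, without versions. In each tumour every deposited signal value was a multiple of what 1 read is worth, so that reads could be recovered (100% whole within 0.01 reads). Tables were scaled separately, so tests stay within a set. Log2(value + 1) was fitted with limma 3.58.1 (trend, all groups of a set) in R 4.3.3, adjusted over all tested genes; edgeR 4.0.16 and DESeq2 1.42.0 ran on recovered reads. The fit was also run on simulated data with the same fixed spread for every gene. That spread was not taken from these tumours, and the outcome is not given here. The pseudocount shrinks differences of low genes. Reads without strand or identifiers leave antisense and copied genes uncertain, and floors (3 reads) cover counting error only.

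Positions and lengths came from GENCODE vM21 (61 members; Cyp2c44 is named Cyp2c23 there), promoters from RefSeq (GRCm38.p6). Genes were named by rule: 5 markers, and per driver comparison the called members with a group mean of at least 100, up to 12 per direction; Cyp2c70, Cyp2d26, Cyp2b10, Cyp1b1, Cyp3a41a and others beyond it were chosen after their values were seen. Members and lists were chosen with earlier results of these data known. Some listed genes and a motif are not reported here.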

Additional observations from a re-analysis of the deposited data

Results flagged for a closer look

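In each group of 4 tumours the highest or lowest value of a member was checked for its distance from the others, on the log2 scale by Dixon's criterion. Of 103 such checks 8 were met, and chance meets about 1 in 20. Among the luc β-catenin tumours of set 1, tumour 3 stood high in Cyp1a1 (70.7) and Cyp2d10 (9008), tumour 4 stood high in Cyp2a4 (3966), and tumour 1 stood high in Cyp2g1 (94.1) and Cyp3a44 (77.1). In the same group tumour 1 stood low in Cyp2j6 (306) and tumour 2 stood low in Cyp2a22 (209). Among the lucOS p53 tumours of set 2, tumour 2 stood low in Cyp2a12 (28.5). Cyp1a1, Cyp2a22, Cyp2a4 and Cyp2d10 are among the members called with luc in set 1, and without the tumour that stood apart each call held.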

How the results depend on the processing

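No paired analysis was possible because the labels carry no replicate numbers. Counts of called members stayed within 1.5 times of those reported under another pseudocount (5), no filter, TMM or median-centred scaling, and edgeR. With lucOS in set 1 the count of 5 became 1 when only the compared groups were fitted and 14 in DESeq2, and ran from 2 to 7 with each tumour left out. In the luc comparison of set 1 it ran from 18 to 24 with each tumour left out. In the lucOS comparison of set 2 it ran from 11 to 19. Only effect sizes are read from the fit on JAX tumours alone, where 1 p53 tumour remains. DESeq2 called 1 member in the set 1 interaction, against 0. Summing all transcripts of a gene moved no count beyond that limit. TMM moved the median of all genes to -0.01, -0.00 and -0.01 in the 3 driver comparisons, against -0.20, -0.15 and -0.16, and that of the members to 2.19, 1.04 and 2.02. Signs turned under another scaling for Cyp3a13, Cyp2d26, Cyp2t4 and Cyp2u1 in a driver comparison and for Cyp2d10 between lucOS and luc β-catenin tumours of set 1, none of them called. Signs of uncalled members also turned between lucOS and luc β-catenin tumours in other fits. For Cyp1a2 in set 2 the difference was 0.25 in edgeR and 0.25 in DESeq2. With each tumour left out it ran from -1.32 to 0.64 for Cyp1a2, from -0.30 to 1.17 for Cyp2e1, from -0.091 to 1.21 for Cyp2a5 and from -1.20 to 0.30 for Cyp3a11 in set 2, and from -0.63 to 0.42 for Cyp2a5 and -0.11 to 1.13 for Cyp2c38 in set 1. The causes were not tested.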

Other observations

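P450 genes of the other families, which serve bile acid, steroid, fatty acid and vitamin metabolism more than drug oxidation, were tested in the same fits. Of 29 tested in each set, 9 rose and 2 fell with luc in set 1, 5 rose and 0 fell with lucOS in set 1, and 6 rose and 1 fell with lucOS in set 2. Over all genes 5.93%, 1.62% and 6.08% rose and 9.16%, 2.59% and 10.9% fell. Median log2 differences of the other families were 1.44, 1.08 and 1.56, against 2.06, 0.89 and 1.87 for the members of families 1 to 3.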
